A study of Mus musculus with 14 samples.

Results

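Cholesterol synthesis and sterol handling were followed through 30 genes, taken as the rows of the 2 deposited count tables whose gene symbol was on a fixed list of pathway members. All 30 were found among the 55228 genes of the tables. Of these, 18 encode enzymes of cholesterol synthesis, and 12 encode regulators of synthesis, carriers of sterol inside the cell, efflux pumps and sterol-sensing receptors. RNA was sequenced from 14 libraries of mouse lower urinary tract epithelium, all of it from untreated wild-type female embryos of the outbred CD-1 strain. There were 3 libraries of bladder epithelium and 3 of urethral epithelium at stage E18.5, where E is the embryonic day, and 4 of bladder epithelium and 4 of urethral epithelium at E14.5. Each library pooled the female embryos of a litter, and the epithelium was peeled from the mesenchyme after trypsin digestion, with no sorting of cells. The series' design counts 3 litters for E18.5 and 4 for E14.5, whereas the extraction notes count 3 for each kind of sample.

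Cells make cholesterol from acetyl-CoA. The mevalonate arm builds farnesyl diphosphate, which also feeds the modification of proteins with lipid anchors, and the sterol arm joins farnesyl units into squalene, closes the rings and trims the product to cholesterol. The pathway is known to be switched as a unit: SREBP transcription factors, held in the endoplasmic reticulum by Scap and the Insig proteins while sterol is plentiful, move to the nucleus when it is scarce and switch on the synthesis genes. Liver X receptors respond to oxidised sterols and switch on the efflux pumps Abca1 and Abcg1. In the bladder, the apical membrane of the surface cells of the urothelium is known to be rich in cholesterol, along with the uroplakin proteins.

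Library totals ran from 21.1 to 36.8 M counts, and every member passed the filter on low counts in every comparison. Levels are in CPM, the counts of a gene scaled to a fixed library size after adjustment by the trimmed mean of M values (TMM). The epithelial label was checked against 8 marker lists, in which no gene was at 0 in a whole group. The 7 pan-epithelial markers together reached 2564 to 3408 CPM in the bladder libraries, against 3596 to 4221 CPM in the urethral libraries, at E18.5. At E14.5 they reached 3941 to 4696 CPM in the bladder libraries, against 1657 to 3656 CPM in the urethral ones. The 15 mesenchyme markers reached 19044 to 28090 CPM in the bladder libraries, against 4330 to 5179 CPM in the urethral ones, at E18.5. Their E14.5 sums were 881 to 4062 CPM in the bladder libraries, against 2029 to 5830 CPM in the urethral ones. Mesenchymal RNA was thus present in every library, most in the E18.5 bladder libraries. Of the 6 urothelial markers, which include the uroplakins, 4 were higher and 2 lower in bladder at E18.5, and 4 were higher and 1 lower at E14.5. Endothelial markers were higher in bladder for 5 of 5 and erythroid markers for 4 of 5 at E18.5, and 0 of either list at E14.5. In bulk RNA, fewer cells of a type and less RNA per cell cannot be told apart.

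Compared per length, in CPM per kilobase of exon averaged over the 4 groups, Hmgcs1 was the most abundant member at 67.6, followed by Srebf2 at 49.9 and Acat2 at 44.8. Hmgcs1 makes HMG-CoA, Srebf2 is the SREBP factor best known for cholesterol genes, and Acat2 is the cytosolic thiolase of the first step. Sqle, the squalene epoxidase, followed among the enzymes at 33.5 CPM per kilobase. The least abundant members were Fdps at 2.10, the efflux pump Abcg1 at 1.80 and the liver X receptor Nr1h3 at 1.11 CPM per kilobase. Hmgcs1, Acat2 and Fdps share sequence or position with other genes, as described below, so that their levels and ranks are uncertain. The length was that listed for each gene, and not that of the transcript expressed.

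Whether bladder and urethral epithelium differ was the question of the first comparison, at E14.5. All 18 synthesis genes were higher in bladder under TMM scaling (edgeR quasi-likelihood test, Benjamini-Hochberg adjusted p under 0.05), although 10 of them took a value below 0 when libraries were scaled to the pan-epithelial genes instead. Of the 16697 genes tested, 23.1% were called higher. Their median log2 fold change was 0.90, with a range of 0.46 to 1.51, against a median of -0.035 over all genes tested. For all 18, every bladder library lay above every urethral library, which held for 22.7% of all genes tested. The increase ran through both arms of the pathway, with a median log2 fold change of 0.93 over the 7 genes of the mevalonate arm and 0.86 over the 11 of the squalene and sterol arm.

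**Figure D1:**
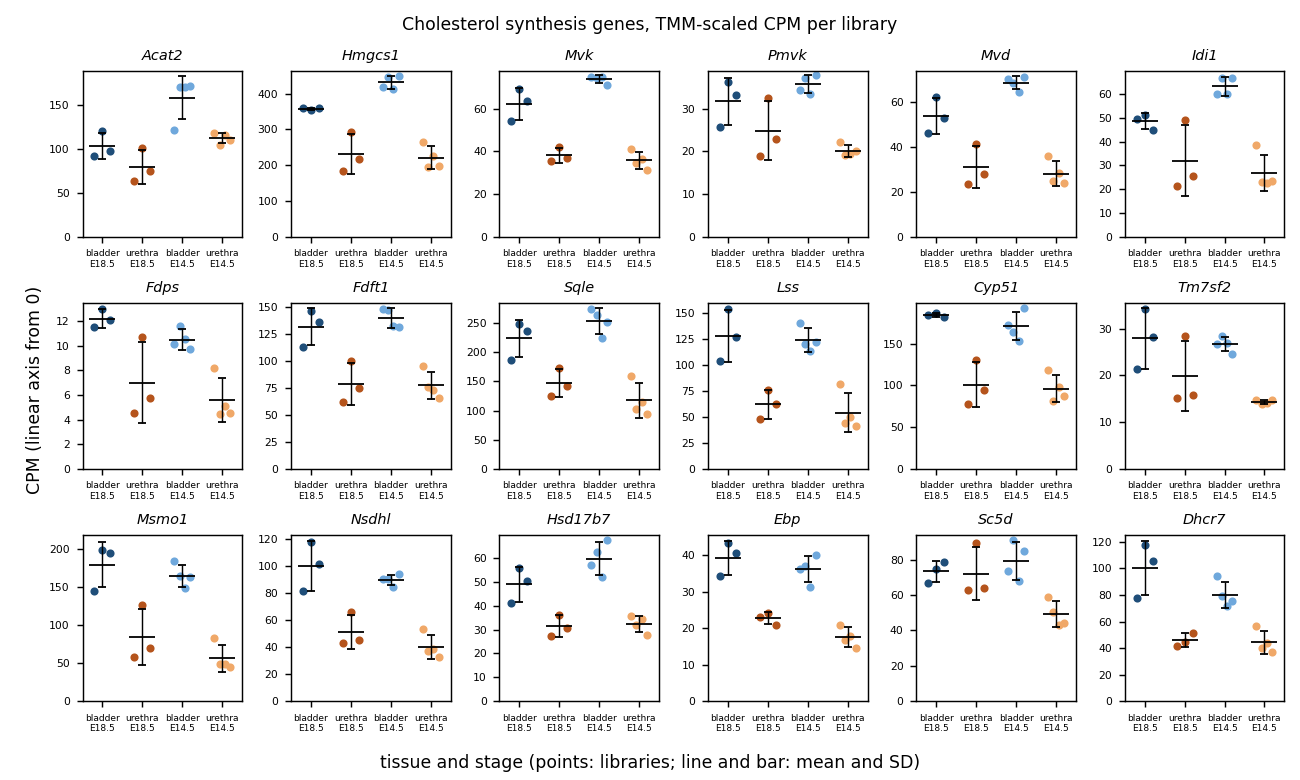
CPM of the 18 synthesis genes in each library (points), by tissue and stage, with the group mean and SD (line and bar), on linear axes from 0. At E14.5 the 4 bladder libraries lay above the 4 urethral libraries for all 18 genes, and at E18.5 the 3 bladder libraries lay above the 3 urethral libraries for 13 of them.

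In the mevalonate arm at E14.5, Mvk, which phosphorylates mevalonate, had 74.8, 74.5, 75.0 and 71.2 CPM in bladder, against 41.0, 34.6, 36.2 and 31.1 CPM in urethra. The bladder libraries lay within a narrow band and well above all urethral ones. The fold was 2.01 (log2 1.01 ± 0.09 SE, edgeR quasi-likelihood adjusted p = 0.000336). Mvd, which decarboxylates the phosphorylated product, rose most in this arm, by 1.25 ± 0.13 on the log2 scale. Idi1, the isomerase that supplies the second isoprene building block, rose by 1.20 ± 0.17 and Hmgcs1 by 0.93 ± 0.10. Idi1 averaged 63.5 ± 3.99 CPM in bladder and 26.9 ± 7.73 CPM in urethra (SD, n = 4 each). Pmvk, the second kinase, rose by 0.78 ± 0.08 and Fdps, the farnesyl diphosphate synthase, by 0.87 ± 0.22. Acat2 had the smallest log2 fold change of the 18, at 0.46 ± 0.12.

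In the squalene and sterol arm, Msmo1, which oxidises the methyl groups at the fourth carbon of the sterol, had 184, 164, 149 and 164 CPM in bladder, against 83.1, 48.6, 49.1 and 44.3 CPM in urethra. Its groups were separated by a wide gap, and it had the largest log2 fold change of the 18 (1.51 ± 0.19 SE, 2.85-fold, edgeR quasi-likelihood adjusted p = 0.000802). Its partner in demethylation, Nsdhl, rose by 1.11 ± 0.14, and Hsd17b7, the reductase of the same cycle, by 0.84 ± 0.10. Tm7sf2, a sterol reductase, had the smallest adjusted p of this arm, at 26.7, 28.5, 27.0 and 24.7 CPM in bladder, against 14.8, 13.8, 14.1 and 14.6 CPM in urethra (log2 0.86 ± 0.09, edgeR quasi-likelihood adjusted p = 0.000522). These values fell into tight, separate groups.

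At the entry to the sterol arm, Fdft1, the squalene synthase, rose by 0.81 ± 0.11 and Sqle by 1.07 ± 0.16. Sqle averaged 254 ± 21.9 CPM in bladder and 118 ± 29.7 CPM in urethra (SD, n = 4 each). Lss, which closes the rings to lanosterol, rose by 1.16 ± 0.21 and Cyp51, the lanosterol demethylase, by 0.79 ± 0.12. Of the late enzymes, the isomerase Ebp rose by 1.00 ± 0.12, the desaturase Sc5d by 0.65 ± 0.12 and Dhcr7, the reductase of the last step, by 0.81 ± 0.14.

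The promoters of 4 members are printed because their genes span the pattern: Hmgcs1, the most abundant enzyme; Msmo1, the enzyme with the largest fold; Insig1, the regulator with the largest fold at E18.5; and Abca1, an efflux pump that went the other way at E14.5. Sequences are from RefSeq on GRCm38.p6, 5′ to 3′ on the strand of the gene, from 250 bases before to 50 bases after the start. Capitals mark CCAAT, the box bound by NF-Y, or its reverse complement ATTGG, and the core of the sterol regulatory element, TCACNCCAC, searched on both strands.
Hmgcs1 (chr13:119690101-119690400, plus strand): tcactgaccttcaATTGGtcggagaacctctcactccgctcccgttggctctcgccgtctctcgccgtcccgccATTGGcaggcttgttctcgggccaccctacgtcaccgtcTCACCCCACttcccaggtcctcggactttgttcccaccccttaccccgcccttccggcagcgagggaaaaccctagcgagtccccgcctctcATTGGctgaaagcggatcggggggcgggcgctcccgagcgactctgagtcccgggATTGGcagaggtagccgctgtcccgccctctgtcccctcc
Msmo1 (chr8:64733529-64733828, minus strand): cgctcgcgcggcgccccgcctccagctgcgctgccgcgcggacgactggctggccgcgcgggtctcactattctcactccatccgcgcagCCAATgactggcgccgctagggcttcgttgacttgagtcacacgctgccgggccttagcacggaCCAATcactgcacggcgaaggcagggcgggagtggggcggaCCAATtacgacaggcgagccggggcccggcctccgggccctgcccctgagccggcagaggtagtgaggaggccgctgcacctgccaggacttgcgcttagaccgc
Insig1 (chr5:28071162-28071461, plus strand): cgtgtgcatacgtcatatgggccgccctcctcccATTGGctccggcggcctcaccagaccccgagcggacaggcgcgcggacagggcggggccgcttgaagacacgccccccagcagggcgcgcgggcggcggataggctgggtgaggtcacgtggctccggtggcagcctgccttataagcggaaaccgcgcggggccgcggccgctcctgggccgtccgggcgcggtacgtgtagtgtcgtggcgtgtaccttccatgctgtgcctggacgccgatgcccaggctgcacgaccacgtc
Abca1 (chr4:53159846-53160145, minus strand): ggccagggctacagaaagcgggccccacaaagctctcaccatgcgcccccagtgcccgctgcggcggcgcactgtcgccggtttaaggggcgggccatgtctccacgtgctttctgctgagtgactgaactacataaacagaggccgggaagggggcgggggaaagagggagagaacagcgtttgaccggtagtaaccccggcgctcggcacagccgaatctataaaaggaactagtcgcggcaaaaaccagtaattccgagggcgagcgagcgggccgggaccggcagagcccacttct
The 300 bases of Hmgcs1 hold 4 CCAAT boxes and the sterol element core at position -137 from the start, those of Msmo1 hold 3 CCAAT boxes, those of Insig1 hold 1 and those of Abca1 hold none.

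RefSeq promoters were found for 24 of the 30 members, 15 of them synthesis genes. A CCAAT box was present for 14 of these 15 genes and in 14 of their 18 promoters (77.8%), in 6 of the 15 promoters of the other members (40.0%), and in 37.4% of all 32851 promoters of the same length. Acat2 was the synthesis gene with none. The Sp1 box GGGCGG, on either strand, was in 83.3% of the synthesis promoters, in 66.7% of those of the other members and in 35.7% of all promoters. The letters TCACNCCAC were found for Hmgcs1 alone, and in 1.24% of all promoters. A match of letters is a description and not a bound site, and the boxes did not overlap the sterol element core in the printed sequences.

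The 5 regulators of SREBP were also all higher in bladder at E14.5 under TMM scaling, with a median log2 fold change of 0.72, although under pan-epithelial scaling all but Srebf1 lay below 0. Insig1, itself a well-known SREBP target that retains Scap, had 49.3, 56.5, 56.0 and 49.9 CPM in bladder, against 34.3, 31.4, 34.9 and 24.3 CPM in urethra. All bladder values lay above all urethral values, with a log2 fold change of 0.72 ± 0.13 (edgeR quasi-likelihood adjusted p = 0.00284). Srebf1, the SREBP factor better known for fatty acid genes, rose by 0.96 ± 0.24 and Srebf2 by 0.74 ± 0.14. Scap, the escort of both factors, rose by 0.65 ± 0.12. Insig2 rose by 0.51 ± 0.15, a call that was lost without bladder replicate 1 or without urethral replicate 2, 3 or 4 (log2 0.44 to 0.47, edgeR quasi-likelihood adjusted p from 0.0586 to 0.0665).

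Sterol handling was mixed at E14.5, where 23.1% of all genes tested were called higher and 20.9% lower. Of the 12 members that are not enzymes of synthesis, 6 were higher, of which 5 were the SREBP regulators, and 3 were lower. The number lower was near the share of all genes. For 5 of the 12 every bladder library lay above every urethral one, and for 2 below, against 22.7% and 17.4% of all genes tested. Abcg1, which exports cholesterol to lipoproteins, had 7.46, 3.43, 4.56 and 2.89 CPM in bladder, against 16.8, 12.1, 11.6 and 9.89 CPM in urethra. Every bladder library lay below every urethral library, with a log2 fold change of -1.49 ± 0.32 (edgeR quasi-likelihood adjusted p = 0.00674). Abca1, which loads cholesterol onto apolipoproteins, had 54.7, 53.6, 53.0 and 75.5 CPM in bladder, against 92.6, 68.6, 82.3 and 78.4 CPM in urethra. Bladder replicate 4 lay among the urethral values, and the log2 fold change was -0.49 ± 0.13 (edgeR quasi-likelihood adjusted p = 0.0187, 0.0561 without bladder replicate 2).

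The carriers of sterol after uptake split at E14.5. Npc1, the membrane protein through which cholesterol leaves lysosomes, had 38.7, 36.0, 37.0 and 34.2 CPM in bladder, against 47.0, 50.8, 53.9 and 45.5 CPM in urethra. The groups did not overlap and the log2 fold change was -0.47 ± 0.09 (edgeR quasi-likelihood adjusted p = 0.00336). Its soluble partner Npc2 averaged 186 ± 10.3 CPM in bladder and 200.5 ± 10.3 CPM in urethra (SD, n = 4 each; edgeR quasi-likelihood adjusted p = 0.101). Stard4, a cytosolic sterol carrier, was higher in bladder (log2 0.53 ± 0.14, or -0.42 under pan-epithelial scaling). Of the liver X receptors, Nr1h2 averaged 61.6 ± 10.02 CPM in bladder, against 56.2 ± 5.26 CPM in urethra (SD, n = 4 each). Nr1h3 averaged 0.561 ± 0.202 CPM in bladder, against 0.563 ± 0.364 CPM in urethra, and neither receptor passed the test.

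**Figure D2:**
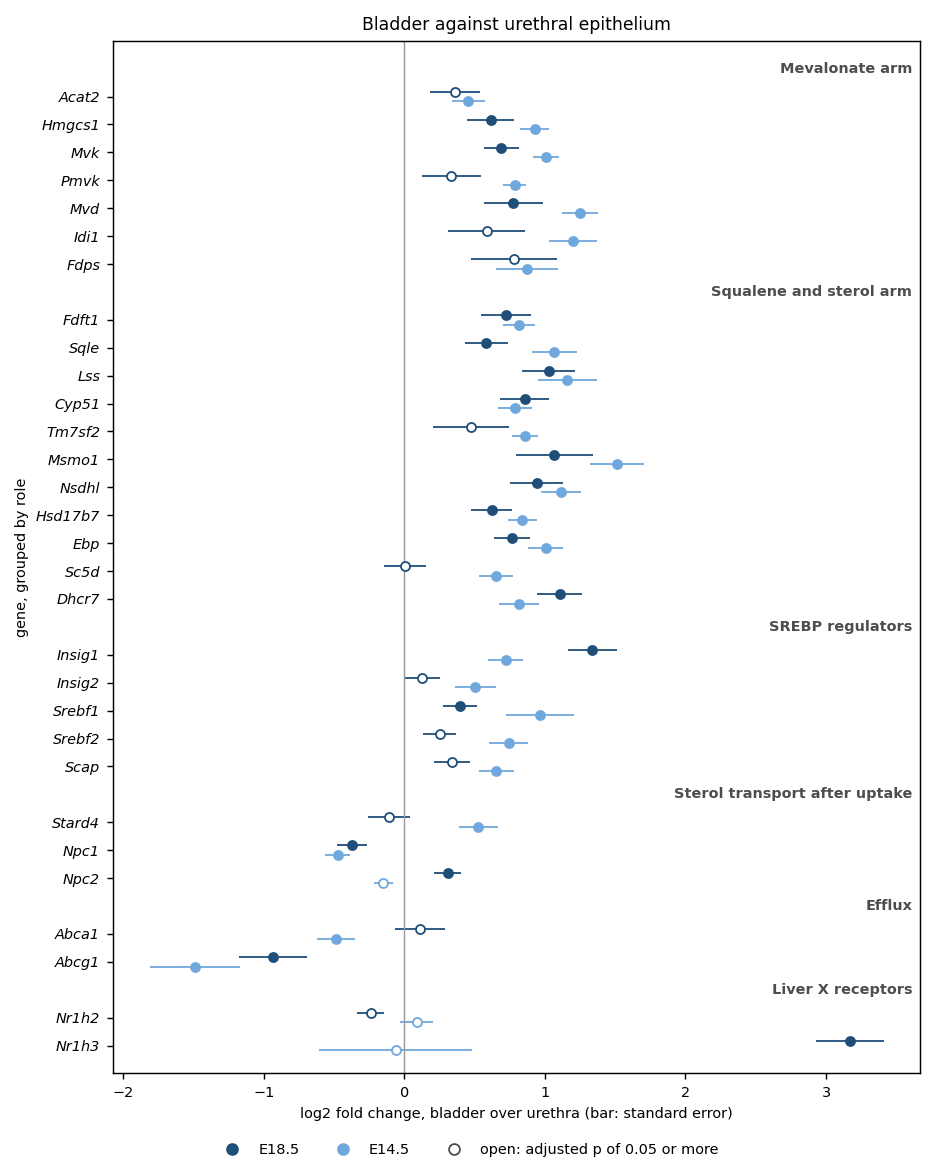
Log2 fold change of bladder over urethra for the 30 members, grouped by role, at E18.5 (dark) and E14.5 (light), with the standard error as a bar and open symbols where the adjusted p was 0.05 or more. The synthesis genes lay at 0.01 to 1.11 at E18.5 and at 0.46 to 1.51 at E14.5, while Abcg1 and Npc1 lay below 0 at both stages. Values are under TMM scaling; scaling to pan-epithelial genes put 10 of the synthesis genes below 0 at E14.5 and Npc1 at 0.046 at E18.5.

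Marker lists moved with the E14.5 difference. Of the 7 pan-epithelial markers 5 were called higher in bladder, of the 15 mesenchyme markers 7 were called lower, and of the 13 proliferation markers 6 were called higher. Urethral replicate 1, with a pan-epithelial sum of 3656 CPM against 1657 to 2218 CPM in the other urethral libraries, had the highest level of the 4 urethral libraries for all 18 synthesis genes, as it had for 38.2% of all genes tested. Like every urethral library at E14.5, it lay below the lowest bladder library for all 18, at a median of 0.616 of the bladder mean. Its pan-epithelial sum was also below those of the bladder libraries, which were 3941 to 4696 CPM. With the mesenchyme score (the mean log2 CPM of that list) as a covariate, 15 of the 18 kept their call. Of the 12 other members 1 was called higher and 0 lower. That fit called 1329 of the 16697 genes tested higher and 1213 lower. With libraries scaled to the summed pan-epithelial genes, the median of all genes moved to -1.02 and that of the synthesis genes to -0.03. Of the 18, 1 was called higher under that scaling. Over the 16697 genes tested it called 517 higher and 11415 lower.

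At E18.5 the difference between the tissues was again toward bladder for synthesis. Of the 18 genes, 12 were higher in bladder (edgeR quasi-likelihood adjusted p under 0.05), where 19.3% of the 17513 genes tested were called higher, and 0 were lower. The median log2 fold change was 0.71, against -0.026 over all genes. Every bladder library lay above every urethral library for 13 of the 18, and for 25.7% of all genes tested. In the mevalonate arm 3 of 7 passed, and in the squalene and sterol arm 9 of 11. The 6 that did not pass were Acat2, Pmvk, Idi1, Fdps, Tm7sf2 and Sc5d.

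Dhcr7, the reductase of the last step, had the smallest adjusted p of the enzymes at E18.5, with 78.1, 118 and 106 CPM in bladder, against 41.4, 44.9 and 51.6 CPM in urethra. Its groups did not overlap (log2 1.11 ± 0.16, 2.15-fold, edgeR quasi-likelihood adjusted p = 0.00103). Msmo1 had 145, 199.5 and 194 CPM in bladder, against 57.8, 126 and 69.6 CPM in urethra. Here too every bladder library lay above every urethral one, although urethral replicate 2 came close to the lowest bladder library (log2 1.07 ± 0.27, edgeR quasi-likelihood adjusted p = 0.0152). Mvk had 54.4, 69.3 and 63.5 CPM in bladder, against 35.4, 42.2 and 36.7 CPM in urethra, again without overlap (log2 0.69 ± 0.12, edgeR quasi-likelihood adjusted p = 0.00284).

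Lss was higher in E18.5 bladder by 1.03 ± 0.19 on the log2 scale, Nsdhl by 0.94 ± 0.19, Cyp51 by 0.85 ± 0.17 and Ebp by 0.77 ± 0.13. Cyp51 had 185, 187 and 182 CPM in bladder, against 77.5, 130.3 and 94.3 CPM in urethra, so that its bladder libraries were nearly equal. Hmgcs1 showed the same evenness, with 359.8, 354 and 360.1 CPM in bladder, against 183, 293 and 218 CPM in urethra (log2 0.61 ± 0.17). Sc5d, by contrast, had 66.8, 75.0 and 78.5 CPM in bladder, against 63.0, 89.4 and 63.9 CPM in urethra. The Sc5d groups overlapped and its log2 fold change was 0.01 ± 0.15.

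The count at E18.5 turned on single libraries. Urethral replicate 2 had the highest level of the 3 urethral libraries for 17 of the 18 synthesis genes, Dhcr7 being the exception, against 38.2% of all genes tested. Idi1 stood at 49.1 CPM there and at 21.3 and 25.7 CPM in the other urethral libraries, a ratio of 2.09 to their mean, as for Fdps, and Msmo1 had a ratio of 1.99. In the same library Srebf2, Srebf1 and Scap were at 0.881, 0.886 and 0.834 of the mean of the others and Abca1 at 0.643, while Insig1 was at 1.34 and Stard4 at 1.31. Its pan-epithelial sum was 3895 CPM and its mesenchyme sum 4591 CPM, both within the range of the other urethral libraries. Its smooth muscle sum of 2247 CPM was above the 934 and 1700 CPM of the others, and its erythroid sum of 504 CPM above their 306 and 236 CPM. Its endothelial sum of 46 CPM, against 48 and 78 CPM, and its immune sum of 35 CPM, against 41 and 38 CPM, were the lowest of the 3, and the part of these differences was not tested. Without it 17 of the 18 synthesis genes were higher in bladder, all but Sc5d, whereas without urethral replicate 1, which had the lowest level for 17 of the 18, the count was 8. Without any other single library it was 10 to 12. How many of all genes were called in these smaller fits was not counted, so the swing is not shown to be particular to synthesis genes.

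**Figure D3:**
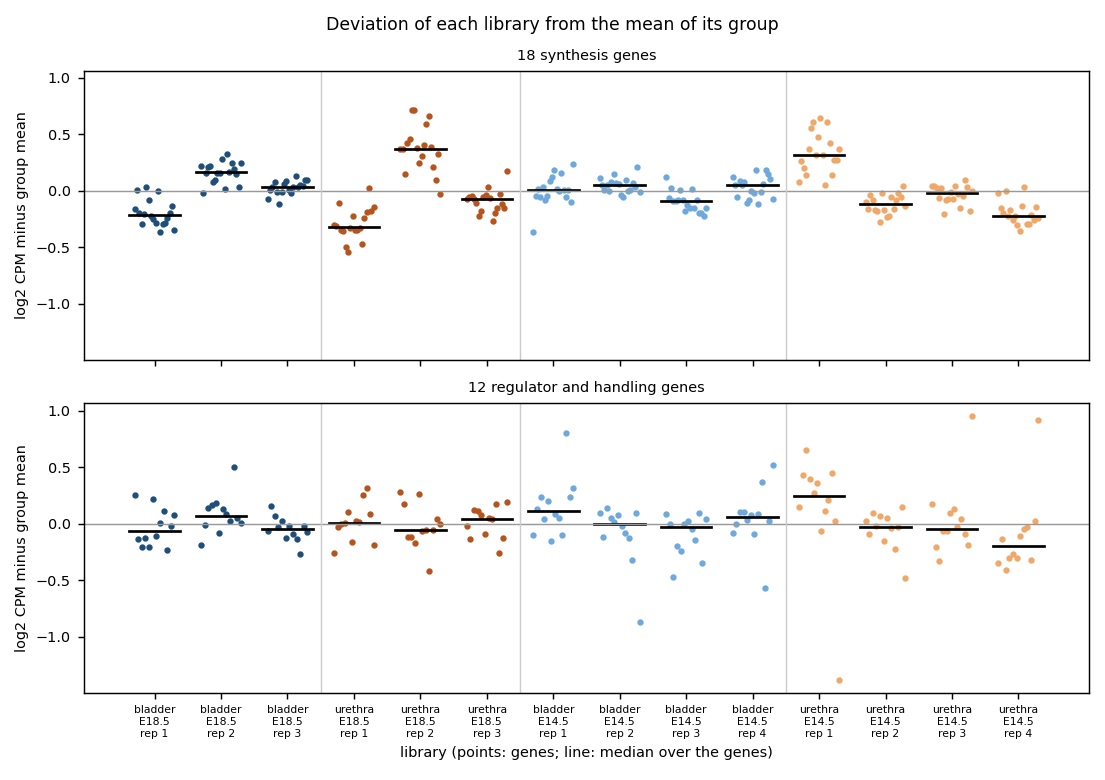
Log2 CPM of each gene minus the mean of its group (points), per library, with the median over the genes as a line, for the 18 synthesis genes (top) and the 12 other members (bottom). Urethral replicate 2 at E18.5 had a median of 0.37 for synthesis genes and -0.05 for the others, and urethral replicate 1 at E14.5 had 0.32 and 0.24.

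Bladder libraries at E18.5 also moved as a block. Replicate 2 was the highest of the 3 for 16 of the 18 synthesis genes and replicate 1 the lowest for 15, against 34.8% and 35.8% of all genes tested. Their summed synthesis levels were 2086 CPM in replicate 2, 1946 CPM in replicate 3 and 1696 CPM in replicate 1. Insig1 was out of step, with its highest level of 94.5 CPM in replicate 1. The E14.5 bladder libraries were closer together, with sums from 1935 to 2127 CPM, against 912 to 1307 CPM in E14.5 urethra.

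Among the regulators at E18.5, Insig1 showed the largest difference, with 94.5, 69.6 and 75.9 CPM in bladder, against 25.9, 37.5 and 30.4 CPM in urethra. The lowest bladder library was well above the highest urethral one (log2 1.34 ± 0.17, 2.53-fold, edgeR quasi-likelihood adjusted p = 0.000604). Srebf1 had 217, 275 and 262 CPM in bladder, against 187, 174 and 204 CPM in urethra. These values did not overlap (log2 0.39 ± 0.12, edgeR quasi-likelihood adjusted p = 0.0342), but the call was lost without bladder replicate 2 or 3 or urethral replicate 1 or 2, at an adjusted p of 0.0736 to 0.109. Insig2, Srebf2 and Scap did not pass, with log2 fold changes of 0.12 ± 0.13, 0.25 ± 0.12 and 0.34 ± 0.13.

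Nr1h3, which encodes liver X receptor alpha, stood out among all members at E18.5. It had 9.57, 9.10 and 8.64 CPM in bladder, against 0.865, 0.978 and 1.12 CPM in urethra. The groups were far apart (log2 3.17 ± 0.24, 9.001-fold, edgeR quasi-likelihood adjusted p = 4.87e-05). Markers of other cell types moved with it: the mesenchyme list was higher in E18.5 bladder for 12 of 15 genes, the smooth muscle list for 7 of 7 and the immune list for 3 of 5. The immune markers, of macrophages and other leukocytes, reached 92 to 118 CPM in the bladder libraries, against 35 to 41 CPM in the urethral ones. Their part in the Nr1h3 difference was not tested. Nr1h2, liver X receptor beta, had a log2 fold change of -0.24 ± 0.10 and did not pass (edgeR quasi-likelihood adjusted p = 0.0863).

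Of the efflux pumps at E18.5, Abcg1 had 10.1, 16.8 and 9.82 CPM in bladder, against 28.3, 21.9 and 19.0 CPM in urethra. All bladder libraries lay below all urethral ones (log2 -0.94 ± 0.24, edgeR quasi-likelihood adjusted p = 0.0159), while 18.6% of all genes tested were called lower. Under pan-epithelial scaling the Abcg1 value was -0.50 and was not called. Abca1 averaged 81.8 ± 7.07 CPM in bladder and 74.7 ± 17.6 CPM in urethra (SD, n = 3 each) and did not pass. Npc1 had 32.7, 38.4 and 34.8 CPM in bladder, against 45.7, 42.9 and 46.5 CPM in urethra. Npc2 had 272, 288 and 253 CPM in bladder, against 218, 208 and 222 CPM in urethra. Under TMM scaling the partners thus differed in opposite directions without overlap (Npc1 was at 0.046 under pan-epithelial scaling), Npc1 at log2 -0.37 ± 0.11 (edgeR quasi-likelihood adjusted p = 0.0264) and Npc2 at 0.31 ± 0.10 (adjusted p = 0.0379).

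These smaller handling calls at E18.5 rested on single libraries. The Npc2 call was lost without any 1 library other than bladder replicate 3, at an adjusted p of 0.0515 to 0.12. The Npc1 call was lost without bladder replicate 1 or 3 or urethral replicate 1 or 3, at an adjusted p of 0.0839 to 0.11, and that of Abcg1 without bladder replicate 1 or 3 or urethral replicate 1, at 0.0636 to 0.0653 (edgeR quasi-likelihood, Benjamini-Hochberg). Of the 12 members outside synthesis, 4 were higher and 2 lower in E18.5 bladder, against 19.3% and 18.6% of all genes tested. For 6 every bladder library lay above every urethral one, which held for 25.7% of all genes tested, and for 3 (Npc1, Abcg1 and Nr1h2) every one lay below, which held for 25.5%. Among the markers, all 13 proliferation genes were higher in E18.5 bladder, at a sum of 1390 to 1678 CPM against 640 to 788 CPM in urethra, and 3 of 7 pan-epithelial genes were lower. Their part in the synthesis and handling differences was not tested. With the mesenchyme score as a covariate 0 of the 17513 genes tested were called at E18.5, where the mesenchyme sums of the tissues did not overlap. With pan-epithelial scaling 17 of the 18 synthesis genes were higher, with the median of all genes moved to 0.395. That scaling called 5780 of the 17513 genes tested higher and 1317 lower.

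**Figure D4:**
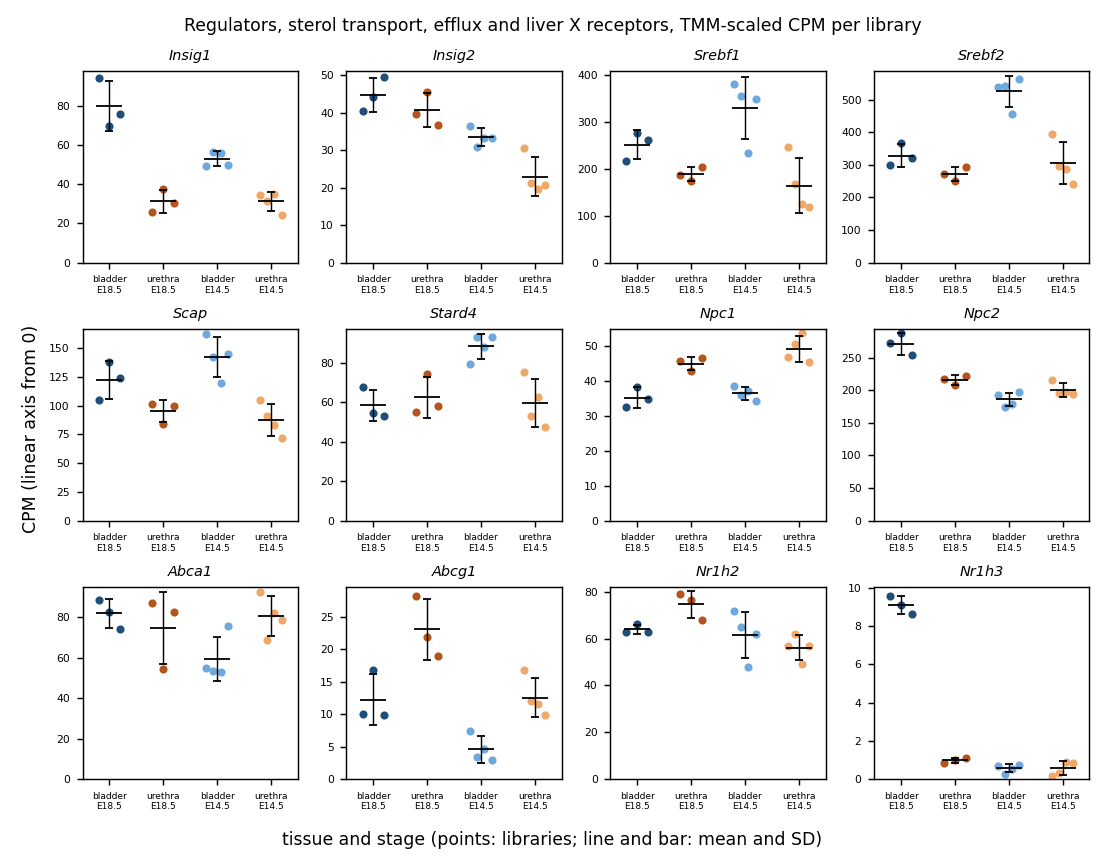
CPM of the 12 regulators, carriers, efflux pumps and receptors in each library (points), by tissue and stage, with the group mean and SD, on linear axes from 0. Nr1h3 lay at 8.64 to 9.57 CPM in the 3 E18.5 bladder libraries and at or below 1.12 CPM in all the others, and Abcg1 was lower in bladder than in urethra at both stages.

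The second question was how the members change from mid to late gestation within a tissue. In bladder, E18.5 against E14.5, 0 of the 18 synthesis genes were higher and 1 was lower under TMM scaling. Of the 18286 genes tested, 19.9% were called higher and 20.4% lower under TMM scaling. Under pan-epithelial scaling 6 synthesis genes were higher and 0 lower. That scaling called 5742 of the 18286 genes tested higher and 302 lower. The median log2 fold change of the synthesis genes was -0.06, or 0.47 under pan-epithelial scaling, which moved the median of all genes to 0.527. Of the 7 pan-epithelial markers 3 were called lower in E18.5 bladder and 0 higher, and of the 13 proliferation markers 5 lower. Acat2 was the one that fell, with 92.6, 120.5 and 98.4 CPM at E18.5, against 122, 171, 172 and 172 CPM at E14.5. E14.5 replicate 1 came close to the E18.5 values (log2 -0.58 ± 0.16, edgeR quasi-likelihood adjusted p = 0.0119, or -0.047 and not called under pan-epithelial scaling). Dhcr7 had the largest positive log2 fold change, 0.36 ± 0.16, and passed the test without E14.5 replicate 1 (0.45) or E18.5 replicate 1 (0.49). An adjusted p over the threshold does not show equal levels: the 17 other genes ranged from -0.34 to 0.36.

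Of the 12 handling and regulator members, 6 were higher and 2 lower in bladder at E18.5 than at E14.5 under TMM scaling. Over the 18286 genes tested, 19.9% were called higher and 20.4% lower, so that the number lower was near the share of all genes. Under pan-epithelial scaling 0 of the 12 were lower, with 302 of all genes tested called lower. With the mesenchyme score as a covariate 0 of the 12 were called in either direction, in a fit that called 186 genes higher and 344 lower. Nr1h3 rose to 9.57, 9.10 and 8.64 CPM at E18.5, against 0.658, 0.288, 0.542 and 0.756 CPM at E14.5. The E14.5 values rest on as few as 10 counts in a library, and the log2 fold change was 4.05 ± 0.45 (16.6-fold, edgeR quasi-likelihood adjusted p = 3.37e-05). Abcg1 had 10.1, 16.8 and 9.82 CPM at E18.5, against 7.46, 3.43, 4.56 and 2.89 CPM at E14.5. It rose without overlap (log2 1.45 ± 0.32, edgeR quasi-likelihood adjusted p = 0.00271). Abca1 rose by 0.51 ± 0.17, a call lost without E14.5 replicate 1, 2 or 3 or E18.5 replicate 1 or 2 (log2 0.41 to 0.47, adjusted p 0.0603 to 0.126). The mesenchyme list was higher at E18.5 in bladder for 12 of 15 genes, the smooth muscle list for 7 of 7 and the immune list for 4 of 5, and their part in these differences was not tested.

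Npc2 had 272, 288 and 253 CPM in E18.5 bladder, against 193, 175, 179.6 and 197 CPM in E14.5 bladder. Every E18.5 library lay above every E14.5 library (log2 0.58 ± 0.08, edgeR quasi-likelihood adjusted p = 9.78e-05). Srebf2 went the other way, with 299, 367 and 320.2 CPM at E18.5, against 540.2, 544, 457 and 563 CPM at E14.5. Its groups were also separate (log2 -0.64 ± 0.14, edgeR quasi-likelihood adjusted p = 0.00319). Stard4, like Srebf2, fell under TMM scaling (log2 -0.56 ± 0.16). Under pan-epithelial scaling neither was called, with Srebf2 at -0.11 and Stard4 at -0.005. Insig1 rose by 0.63 ± 0.15 and Insig2 by 0.45 ± 0.14, the call of Insig2 being lost without E14.5 replicate 2 or 4 or E18.5 replicate 2 or 3 (log2 0.37 to 0.46, adjusted p 0.0589 to 0.0996).

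**Figure D5:**
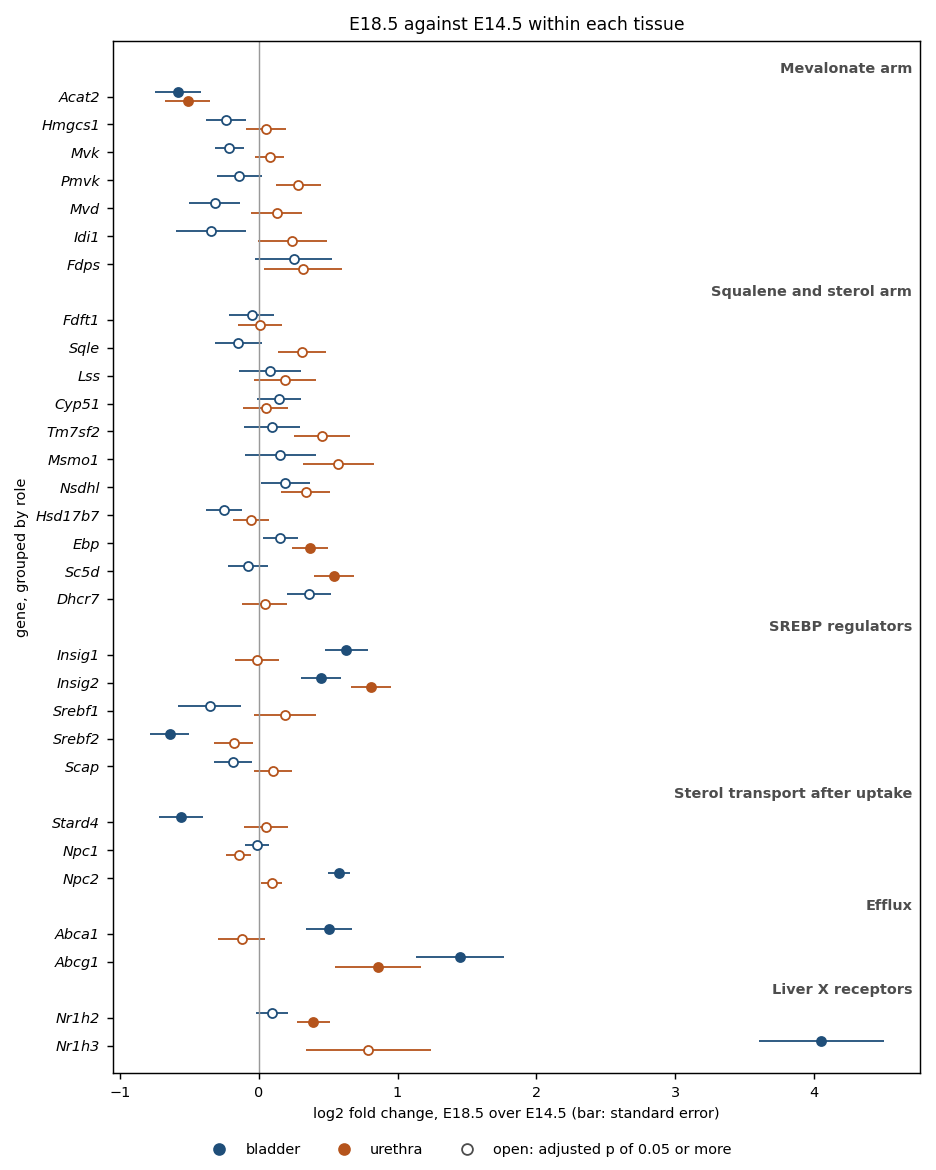
Log2 fold change of E18.5 over E14.5 for the 30 members, grouped by role, in bladder (blue) and urethra (brown), with the standard error as a bar and open symbols where the adjusted p was 0.05 or more. The synthesis genes lay at -0.58 to 0.36 in bladder and at -0.51 to 0.57 in urethra, and Nr1h3 in bladder stood at 4.05. Values are under TMM scaling; pan-epithelial scaling moved the synthesis median to 0.47 in bladder and to -0.54 in urethra.

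In urethra, E18.5 against E14.5, 2 synthesis genes were higher and 1 was lower under TMM scaling. Over all genes tested, 17.3% were called higher and 15.7% lower under TMM scaling. Under pan-epithelial scaling 0 synthesis genes were higher and 9 lower. That scaling called 983 of the 18286 genes tested higher and 9840 lower. Sc5d had 63.0, 89.4 and 63.9 CPM at E18.5, against 58.8, 50.3, 42.9 and 44.2 CPM at E14.5. The groups did not overlap (log2 0.54 ± 0.15, edgeR quasi-likelihood adjusted p = 0.013), and the value without E18.5 replicate 2 was 0.39 (adjusted p = 0.0742). Ebp rose by 0.37 ± 0.13 and Acat2 fell by 0.51 on the log2 scale. The Ebp call was lost without any 1 of E14.5 replicates 2, 3 and 4 and E18.5 replicates 1 and 2 (log2 0.29 to 0.40), and that of Acat2 without E14.5 replicate 3 or 4 or E18.5 replicate 1 or 3 (log2 -0.34 to -0.51). Without E14.5 replicate 1, the urethral library with the highest synthesis levels, 6 synthesis genes were called higher, without E18.5 replicate 1 there were 4, and without E18.5 replicate 2 there were 0. Over the other 4 libraries left out it was 1 or 2. The genes called over all those tested in these smaller fits were not counted.

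Of the handling genes in urethra, Insig2 had 39.6, 45.6 and 36.7 CPM at E18.5, against 30.5, 21.2, 19.6 and 20.6 CPM at E14.5. It rose without overlap (log2 0.81 ± 0.14, edgeR quasi-likelihood adjusted p = 0.00148), but under pan-epithelial scaling its value was 0.032 and it was not called. Nr1h2 had 79.2, 76.5 and 68.1 CPM at E18.5, against 57.0, 61.9, 49.2 and 56.8 CPM at E14.5. It too rose (log2 0.39 ± 0.12, edgeR quasi-likelihood adjusted p = 0.0203, or -0.44 under pan-epithelial scaling), a call lost without E14.5 replicate 3 or E18.5 replicate 1 or 2 (log2 0.36 to 0.41). Abcg1 rose by 0.86 ± 0.31 and lost its call without any 1 library other than E14.5 replicate 1 (log2 0.72 to 1.01 without them) and also under pan-epithelial scaling (0.074). Under that scaling 0 of the 12 members were higher and 8 were lower, against 983 and 9840 of the 18286 genes tested. The 13 proliferation markers all fell in urethra between the stages and 5 of 7 pan-epithelial markers rose, and their part in these differences was not tested.

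Whether the bladder to urethra difference itself changed with stage was tested as an interaction over all 14 libraries. The difference is signed, bladder minus urethra. A larger one at E18.5 is thus a shift toward bladder, which can also be a gap that closed or reversed. Of the 18286 genes tested, 12.2% had a larger signed log2 difference at E18.5 and 10.7% a smaller one. Of the synthesis genes 1 passed, Sc5d, whose log2 difference was 0.01 at E18.5 and 0.65 at E14.5 (interaction -0.62 ± 0.21, edgeR quasi-likelihood adjusted p = 0.0471). The Sc5d call was lost without any 1 library other than bladder replicate 3 or urethral replicate 1 at E14.5, at values from -0.44 to -0.71. The Sc5d value turned round to 0.71 under pan-epithelial scaling (edgeR quasi-likelihood adjusted p = 0.0296) and was 0.044, not called, with the mesenchyme score as a covariate. The median interaction of the 18 was -0.25, or 1.09 under pan-epithelial scaling, which moved the median of all genes to 1.36. The smaller number of synthesis genes called at E18.5 than at E14.5 is therefore not itself shown to be a smaller difference.

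Of the other members, Nr1h3 (3.26 ± 0.64, adjusted p = 0.00427) and Npc2 (0.49 ± 0.11, adjusted p = 0.00781) passed the interaction test in the edgeR quasi-likelihood fit. For Nr1h3 the tissues differed by 3.17 at E18.5 and by -0.06 at E14.5, and for Npc2 by 0.31 at E18.5 and by -0.15 at E14.5. With the mesenchyme score as a covariate 0 members were called in the interaction. That fit called 12 of the 18286 genes tested larger and 34 smaller, too few to tell the members from other genes. Of the 15 mesenchyme markers 14 had a signed difference further toward bladder at E18.5, and of the 5 immune markers 4. Such a shift need not be a wider gap. Mean Twist1 was 3.2 CPM in bladder and 24.2 CPM in urethra at E14.5, against 6.85 and 6.84 CPM at E18.5. Insig1, at 0.64 ± 0.22, was just outside (adjusted p = 0.0533) and passed without bladder replicate 3 or urethral replicate 4 at E14.5 or urethral replicate 2 at E18.5 (0.68 to 0.79). Without urethral replicate 1 at E14.5, Sqle, Insig2, Srebf1, Srebf2 and Stard4 also passed, all with a smaller difference at E18.5 (-0.52 to -0.81). Over all fits that left out 1 library, Stard4 passed in 2. Abca1 passed in 1 of them, with a larger signed difference at E18.5 (0.44 to 0.78 over these fits).

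Other genes of the pathway were followed in 6 lists of 39 genes, chosen by function. Over the lists together 13 were higher and 3 lower in bladder at E18.5, where 19.3% of all genes tested were called higher and 18.6% lower. At E14.5 the numbers were 15 higher and 6 lower, against 23.1% and 20.9% of all genes. Lists of so few genes are counts only, and a share such as 2 of 8 or 1 of 6 is near those of all genes. Under pan-epithelial scaling 19 were higher and 1 lower at E18.5, where 5780 of the 17513 genes tested were called higher and 1317 lower. At E14.5 that scaling had 2 higher and 26 lower, against 517 and 11415 of the 16697 genes tested. The counts and values below are those under TMM scaling unless marked. Enzymes of fatty acid synthesis, which share SREBP control, did not move as 1 block. Of these 11 genes 6 were higher and 2 lower in bladder at E18.5, and 6 were higher and 1 lower at E14.5. At E18.5 Fads2, a fatty acid desaturase, had a log2 fold change of 2.25, Elovl6, an elongase, 2.52 and Fads1 1.82, whereas the fatty acid synthase Fasn fell by 0.49 on the log2 scale (-0.047 and not called under pan-epithelial scaling). At E14.5 Elovl6 had a log2 fold change of 1.82, Me1, which supplies NADPH, 2.55 and the elongase Elovl5 0.69 (-0.27 under pan-epithelial scaling). Of the 8 genes of the isoprenoid branches, 2 were higher at E18.5 and 4 were higher and 1 was lower at E14.5, with Fnta, a subunit of the protein prenyl transferases, at 0.47 at E18.5 and 0.52 at E14.5 (-0.44 under pan-epithelial scaling).

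Of the 7 genes of lipoprotein uptake and ester handling, 3 were higher in bladder at E18.5, and 1 was higher and 2 were lower at E14.5. Scarb1, the receptor for high-density lipoprotein, was higher in bladder at both stages (log2 0.83 at E18.5 and 0.75 at E14.5, or -0.21 at E14.5 under pan-epithelial scaling). Soat1, which esterifies cholesterol for storage, was higher in bladder at E18.5 (log2 0.71) and lower at E14.5 (-1.63), and its interaction of 2.37 passed the test (edgeR quasi-likelihood adjusted p = 0.0142). Lipa, the lysosomal acid lipase, was higher at E18.5 (0.86) and had 0.09 at E14.5, which did not pass. Of the 6 genes of SREBP processing and sterol sensing, 1 was higher at E18.5 and 2 at E14.5, with Pgrmc1, a membrane haem protein that binds Insig1, at 1.34 at E18.5 and 0.62 at E14.5 (-0.34 under pan-epithelial scaling). Of the 5 non-vesicular carriers, Stard3 was lower at E18.5 (-1.27), and at E14.5 Gramd1a (-2.51) and Gramd1b were lower and Osbp was higher (log2 0.45, but -0.47 and called lower under pan-epithelial scaling). Lpcat3, a liver X receptor target, was higher at both stages (0.52 at E18.5 and 1.04 at E14.5, or 0.084 and not called at E14.5 under pan-epithelial scaling), and Mylip, another, passed at neither.

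A few members share sequence or position with other genes, so that their counts depend on how reads were assigned. In GENCODE M21, 65.6% of the longest Acat2 transcript matched transcripts of Acat3 or Tcp1 at 95% identity or more, 33.3% of that of Idi1 matched 3 predicted genes, and Fdps, the member with the lowest counts among the enzymes, shared 26.7% of its exon bases with a predicted gene on the same strand and 16.7% of its transcript with 6 predicted genes. Tm7sf2 shared 12.1% of its exon bases with Vps51 on the same strand. On the opposite strand, Ctsb covered 18.8% of the exon bases of Fdft1, whose transcript matched Ctsb or the predicted gene Gm6781 over 54.7%, and predicted genes covered 13.2% of Scap and 12.1% of Hmgcs1. The values of these 7 members are uncertain to that extent.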

How the data were processed

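Per the labels' protocols, poly(A) RNA of each library was sequenced as read pairs from a directional kit. Reads were handled with HISAT2 2.2.1, SAMtools 1.9 and bcl2fastq on GRCm38, per the submitters' processing notes. How reads were counted, whether by strand, and on which annotation release is not given in the sources used here. The deposited values are raw counts per gene symbol, with the gene length (another, unscaled column) in the authors' tables. All mitochondrial genes had 0 counts.

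Genes passing filterByExpr were tested with the quasi-likelihood test of edgeR 4.0.16 (R 4.3.3) and Benjamini-Hochberg adjusted p under 0.05 over all genes tested. CPM used TMM-scaled library sizes. Bladder against urethra used the libraries of a stage, and the stage and interaction tests all 14. The labelled library was the replicate, and bladder and urethral libraries were fitted as unpaired. Values after ± are standard errors unless marked SD. The fit was tested on simulated data, and replicates differed by more than counting noise (chi-square per gene 10.3 to 105.9). All 30 members were named, with values per library for those with the smallest adjusted p of a role and for those against its majority. Members, roles, lists and tests were chosen with earlier results of these data known. Alternatives used DESeq2 1.42.0 and voom of limma 3.58.1. Gene positions were those of GENCODE M21 for all 30 members, and shared transcript sequence was found with BLAST. RefSeq promoters were missing for Fdft1, Fdps, Sqle, Abcg1, Npc1 and Stard4.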

Additional observations from a re-analysis of the deposited data

Results flagged for a closer look

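In each group of 4 libraries, the highest or lowest level of a member was set against the others, for 60 groups in all. A gap this large is expected by chance in about 1 in 20 groups. Of the 60, 8 held a library far from the rest. Urethral replicate 1 at E14.5 stood above the other urethral libraries for Idi1 (38.5 CPM), Fdps (8.22 CPM), Msmo1 (83.1 CPM), Insig2 (30.5 CPM) and Npc2 (216 CPM). Bladder replicate 4 at E14.5 stood above the others for Abca1 (75.5 CPM) and below them for Mvk (71.2 CPM), where all 4 were within 71.2 to 75.0 CPM. Bladder replicate 1 at E14.5 stood below the others for Acat2 (122 CPM).

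The difference between bladder and urethra itself changed with stage for 3 members in the interaction test. On the log2 scale under TMM scaling it was smaller at E18.5 for Sc5d (-0.62), although the Sc5d value was 0.71 under pan-epithelial scaling and its call was lost without any 1 of 12 libraries. As a signed value, bladder minus urethra, the difference was larger at E18.5 for Npc2 (0.49) and Nr1h3 (3.26). With the mesenchyme score as a covariate 0 of the 3 were called, in a fit that called 12 larger and 34 smaller of 18286 genes.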

How the results depend on the processing

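Scaling to 7 pan-epithelial genes moved the median of all genes (log2) to 0.395 at E18.5, -1.02 at E14.5, 0.527 between stages in bladder, -0.84 between stages in urethra and 1.36 for the interaction. It called 5780 of 17513 genes higher and 1317 lower at E18.5, and 517 of 16697 higher and 11415 lower at E14.5. Of 18286 genes it called 5742 higher and 302 lower in bladder, and 983 higher and 9840 lower in urethra. In the interaction it called 12881 signed differences (bladder minus urethra) larger at E18.5 and 273 smaller. Under this scaling 1 synthesis gene was higher at E14.5, and 0 other members higher and 5 lower. At E18.5, 7 other members were higher and 0 lower. Between stages in bladder, 6 synthesis genes were higher, 0 lower, and 0 others lower. In urethra 0 synthesis genes were higher and 9 lower, and 0 others higher and 8 lower. In the interaction 17 synthesis genes and 11 others were larger at E18.5 and 0 synthesis genes smaller. Values with the opposite sign follow for members called under TMM or pan-epithelial scaling. Members called under neither may also have changed sign and are left out. Log2 values with the opposite sign at E14.5 were Acat2 -0.53, Hmgcs1 -0.030, Pmvk -0.18, Fdps -0.025, Fdft1 -0.12, Cyp51 -0.17, Tm7sf2 -0.12, Hsd17b7 -0.14, Sc5d -0.30, Dhcr7 -0.12, Insig1 -0.25, Insig2 -0.41, Srebf2 -0.19, Scap -0.29, Stard4 -0.42 and Nr1h2 -0.89. At E18.5 it was Npc1 0.046. In urethra between stages they were Hmgcs1 -0.76, Mvk -0.74, Mvd -0.66, Fdft1 -0.78, Lss -0.55, Cyp51 -0.75, Ebp -0.44, Sc5d -0.26, Dhcr7 -0.74, Srebf1 -0.53, Scap -0.70, Stard4 -0.75, Npc2 -0.74 and Nr1h2 -0.44. In the interaction they were Acat2 1.30, Hmgcs1 1.06, Mvk 1.05, Pmvk 0.92, Mvd 0.87, Fdps 1.22, Fdft1 1.25, Sqle 0.84, Lss 1.16, Tm7sf2 1.00, Msmo1 0.84, Nsdhl 1.16, Hsd17b7 1.16, Ebp 1.13, Sc5d 0.71, Insig2 0.94, Srebf1 0.71, Srebf2 0.85, Scap 1.04 and Nr1h2 1.08.

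With a mesenchyme covariate, 1 other member was higher and 0 lower at E14.5, where 1329 of 16697 genes were called higher and 1213 lower. At E18.5 and between stages in bladder 0 members of either kind were called. Over all genes, 0 of 17513 were called at E18.5, and 186 of 18286 higher and 344 lower in bladder. In the interaction 0 members were called, and 12 of 18286 genes were larger and 34 smaller. Sc5d was at 0.044 there. A log2 fold change of at least 1 left 8 synthesis genes and 0 others higher and 1 other lower at E14.5, and 3 synthesis genes and 2 others higher and 0 lower at E18.5. It left 2 others higher and 0 of either kind lower in bladder between stages, 0 of any kind in urethra, and 1 other member larger and 0 synthesis genes smaller in the interaction. The share of all genes left by this cut was not counted, so these numbers have no background to be set against.

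Samples with the same number are not stated to be 1 litter, and their deviations correlated at 0.137, -0.146 and -0.19 at E18.5 and at 0.149, 0.131, 0.391 and -0.105 at E14.5. With the replicate block, 2 other members were higher (4 without it) and 1 lower (2 without it) at E18.5, where Srebf1 (adjusted p = 0.0682), Npc2 (0.105) and Npc1 (0.0712) were not called, and 1 synthesis gene was higher in urethra between stages. Between stages the block also left Insig2 in bladder (0.0585) and Ebp (0.097) and Abcg1 (0.0765) in urethra uncalled (edgeR quasi-likelihood). Not every library correlated best with its own number. No filter left 1 other member lower at E18.5 and 1 synthesis gene higher in urethra. All 14 libraries in 1 fit left 1 other lower at E18.5. The libraries of a tissue alone gave 3 synthesis genes lower in bladder and 1 higher in urethra. In the interaction, DESeq2 size factors in edgeR and a filter of 1 CPM left 0 synthesis genes smaller, and DESeq2 and voom each called 1 other member smaller. The DESeq2 size factors called 2253 of 18286 genes larger and 1882 smaller in the interaction. For the other fits of this paragraph the genes called over all those tested were not counted.

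Leaving out each library in turn gave 18 synthesis genes higher at E14.5 every time. At E18.5 it gave 8 to 17 synthesis genes and 2 to 4 others higher, and 0 to 2 others lower. In bladder between stages 0 to 1 synthesis genes were higher. In urethra 0 to 6 were higher and 0 to 1 lower, and 1 to 3 others were higher. In the interaction 0 to 2 synthesis genes and 0 to 4 others were smaller. The share of all genes called in each of these fits was not counted, and the cause of these changes was not tested. Levels of Nr1h3 outside E18.5 bladder rest on few counts per library.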
